A study of Obba rivulosa with 6 samples.

Results

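Among the genes of the white-rot fungus Obba rivulosa, 63 gene models stood low after 4 weeks of growth on spruce wood and higher both before and after. They were chosen from the levels themselves, given as FPKM by the authors, which is fragments scaled by the length of the model and the size of the library. With v as FPKM plus 1, a member had a lowest v over the libraries of weeks 2 and 8 at least 2 times its higher v at week 4. It also had 10 FPKM or more in every library of weeks 2 and 8, which is called the floor below. These 63 were 0.507% of the 12424 gene models listed and 0.846% of the 7448 that met the floor.

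The study followed the monokaryotic strain 3 A-2, derived from the dikaryotic strain FBCC1032, on sticks of Norway spruce (Picea abies) laid on water agar and kept stationary in the dark at the same temperature. Each culture was started from blended mycelium of a liquid pre-culture, and RNA was taken from colonized wood after 2, 4 or 8 weeks, with 2 replicates a week. No other treatment differed between the groups. The labels do not say whether replicates were separate cultures, so the p-values reflect variation among these libraries, some of which may be technical. All cultures carried 1 monokaryotic strain. Library totals ran from 4908235 to 5154075 expected counts, which are estimated reads per gene model.

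White-rot fungi are basidiomycetes that break down lignin together with cellulose and hemicelluloses. They do so with secreted oxidative enzymes such as peroxidases and laccases, with hydrolases, and with intracellular metabolism that takes up the released sugars and aromatic compounds. In a wood culture the transcripts reflect a mycelium that meets a changing substrate, since easily reached nutrients are used before the more resistant parts of the cell wall. The files pair the identifiers with no gene or product name, and no annotation or sequence was used here. Each member is called here by the JGI protein ID within its identifier, and no role is given to any of them. For the same reason the identity of the culture could not be checked against named marker genes.

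As a group the members took up a much smaller share of the reads at week 4 than before, and at week 8 their share was again near or above that of week 2. Their median level was 55.6 and 55.7 FPKM in replicates 1 and 2 of week 2, 13.5 and 12.2 FPKM at week 4, and 55.1 and 76.2 FPKM at week 8. The median of all models meeting the floor ran from 36.0 to 37.5 FPKM over the libraries of weeks 2 and 4, and was 44.3 and 45.3 FPKM at week 8. The members held 1.02% and 1.01% of the reads in the libraries of week 2, 0.182% and 0.171% in those of week 4, and 0.962% and 1.28% in those of week 8. The low week 4 values follow from the rule and are given as a description.

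No member was absent at week 4. The lowest level there was 1.39 FPKM and the highest 151 FPKM, and every member was listed in all 6 files with an expected count of at least 8. At week 4, 24 members were below 10 FPKM in both libraries and 38 were at 10 FPKM or more in both. By mean level, 7 members were among the 500 most abundant of the 12424 listed models at week 2, none at week 4 and 12 at week 8. Their median rank went from 2475 in the early culture through 7311 in the middle to 2553 at the end. The fall at week 4 again follows from the rule.

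**Figure D1:**
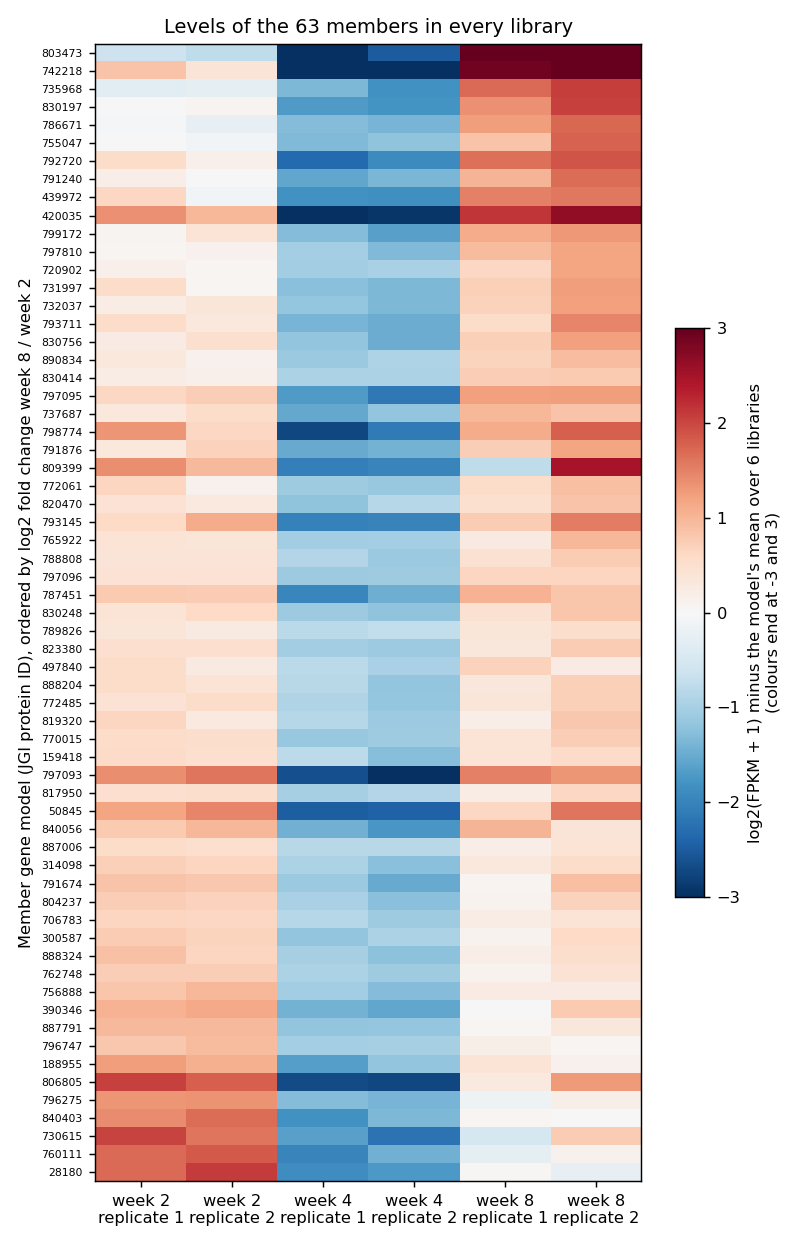
Colour gives log2(FPKM + 1) minus the model's own mean over 6 libraries, for each of the 63 members (rows, by JGI protein ID, from the highest to the lowest fold change of week 8 over week 2) in each library (columns). Both week 4 columns are blue in every row by the rule, while the week 8 columns run from deep red at the top, with model 803473, to near white at the bottom, with model 28180.

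All 63 members passed edgeR's filter on low counts. Its quasi-likelihood test called 62 of them lower at week 4 than at week 2, against 17.7% of all 10889 tested models, and 62 higher at week 8 than at week 4, against 18.0%. The rule had used these contrasts, so nothing is read from those counts. The member outside both was jgi|Obbri1|809399|fgenesh1_pm.2_#_51, chosen here after its values were seen. It stood at 87.2 and 64.8 FPKM at week 2, 7.11 and 7.53 FPKM at week 4, and 18.9 and 185 FPKM at week 8. Its 2 week 8 libraries lay on either side of both week 2 libraries.

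The members differed widely in the depth of the dip. The ratio of the lowest v at weeks 2 and 8 to the higher v at week 4 had a median of 2.43, reached 3 in 16 members, 5 in 7 and 10 in 3. Taken over week means of v, week 2 exceeded week 4 by 2.14 to 24.8 times (median 3.42), and week 8 exceeded it by 2.19 to 143 times (median 3.58). The second ratio was the larger in 39 of 63 members, on the FPKM scale. In FPKM both week 8 libraries were above both of week 2 in 25 members, against 63.3% of the models meeting the floor. They were below both in 17 members, against 17.6%. The rule used the levels of both weeks, so these shares are a description.

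The deepest dip was that of jgi|Obbri1|742218|e_gw1.382.21.1, with a ratio of 16.0. It was listed at 149 and 107 FPKM at week 2, 3.65 and 5.80 FPKM at week 4, and 616 and 1022 FPKM at week 8, so the 3 weeks did not overlap. By mean level it held rank 1021 of all models at week 2, rank 9606 at week 4 and rank 71 at week 8. Next came jgi|Obbri1|797093|fgenesh1_kg.186_#_2_#_Locus556v1rpkm254.74, with a ratio of 15.5. Its levels were 279 and 323 FPKM at week 2, 16.1 and 10.7 FPKM at week 4, and 303 and 264 FPKM at week 8. Here weeks 2 and 8 overlapped, and the model held ranks 394 and 386 in them, against rank 7311 at week 4.

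In FPKM the 2 most abundant members lay on different sides of their week 2 level at week 8. Only the difference of the second, model 806805, was called in the test below. Model jgi|Obbri1|420035|CE419858_521 stood at 615 and 478 FPKM at week 2, 11.7 and 30.4 FPKM at week 4, and 1051 and 1506 FPKM at week 8. At week 8 it held rank 35, and its week 8 libraries were both above those of week 2, as in 63.3% of the models meeting the floor. Its reads were partly divided between similar gene models (a count that is not whole), so its level is uncertain. Model jgi|Obbri1|806805|fgenesh1_pg.188_#_12 was at 1127 and 948 FPKM at week 2, 41.5 and 40.4 FPKM at week 4, and 332 and 657 FPKM at week 8. It held rank 65 at week 2 and rank 166 at week 8, and its week 8 libraries were both below those of week 2. Together both models made up 18.7% to 22.2% of the summed FPKM of the members at week 2 and 18.4% to 21.1% at week 8. At week 4 they made up 4.16% and 5.60%. They were ranked on weeks 2 and 8 alone, so nothing is read from the lower share at week 4.

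**Figure D2:**
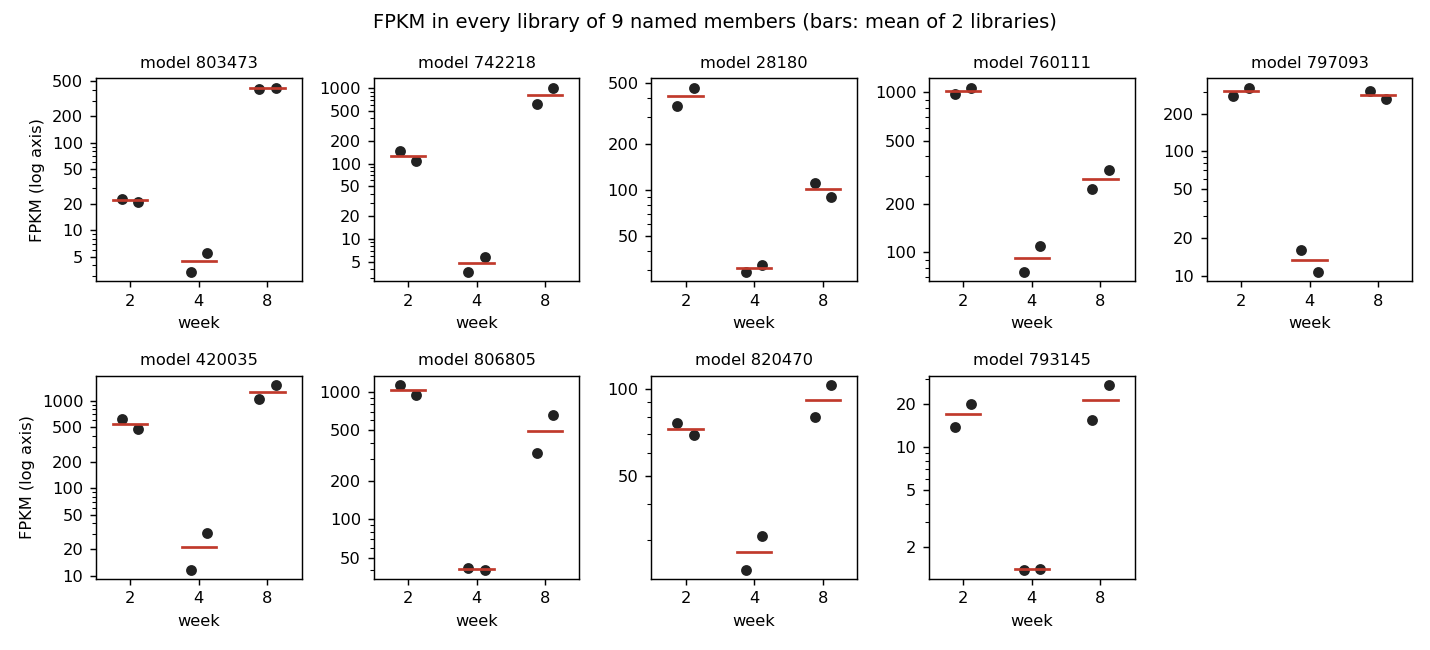
Points give the FPKM of each library (log axis, with its own range in each panel) at weeks 2, 4 and 8 for 9 named members, and bars the mean of 2 libraries. Week 4 lies lowest in every panel, whereas week 8 stands above week 2 for model 803473 and below it for models 28180 and 760111.

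The rule did not set the direction between weeks 8 and 2, and week 8 was therefore tested against week 2. It did use both weeks, though, and bounded how low a member could lie at week 2 or week 8. The models meeting the floor had no such limit, so the shares set beside each other here and below are a description. Of the 63 members, 11 were higher at week 8 and 16 lower, and 36 were not called (edgeR's quasi-likelihood test over all 10889 models, adjusted p below 0.05). Among all tested models 13.2% were higher and 13.7% lower. Among those meeting the floor the shares were 10.6% and 15.2%, against 17.5% and 25.4% of the members. By at least 2-fold, 7 members were higher and 9 lower, where 4.35% and 7.96% of the models meeting the floor were so. The members' median log2 fold change was -0.17, against 0.00479 for all models meeting the floor, and the range ran from -2.35 to 3.92.

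Whether higher or lower members prevailed depended on the scaling. TMM scaling, used in the test, sets week 8 lower than FPKM does, by 0.33 on the log2 scale for the median of all tested models against week 2. With total counts only, as FPKM is scaled, 19 members were higher and 12 lower (30.2% and 19.0%), while 32.5% and 9.12% of all tested models were. The members' median log2 fold change then turned to 0.15, against 0.33 for all models meeting the floor. It lay below theirs under both scalings, but the rule had used the levels of weeks 2 and 8. How far the selection itself set this gap was not tested. The 11 members called higher with TMM were among the 19, and the 12 called lower were among the 16.

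The 11 members higher at week 8 than at week 2 included 7 that rose by at least 2-fold and 4 that rose by less. Their median of week means was 66.0 FPKM at week 2, 15.8 FPKM at week 4 and 243 FPKM at week 8. The leading one was jgi|Obbri1|803473|fgenesh1_pg.56_#_25, with 23.0 and 20.8 FPKM at week 2, 3.35 and 5.51 FPKM at week 4, and 410 and 423 FPKM at week 8. Its week 2 level was modest, at rank 5615, and its week 8 rank was 218. The log2 fold change of week 8 over week 2 was 3.92 with an SE of 0.19 (edgeR adjusted p = 4.46e-07). Behind these levels were 55 and 51 expected counts in the week 2 libraries, 8 and 13 in those of week 4, and 999 and 1049 in those of week 8. Model 742218, described above, was next, with a log2 fold change of 2.35 and an SE of 0.30 (edgeR adjusted p = 0.000294).

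In FPKM the 16 members lower at week 8 than at week 2 stood between their week 4 and week 2 levels. That they lay above week 4 follows from the rule. The rule used FPKM, while the call used TMM scaling, which sets week 8 lower. A lower member therefore need not reach the bound of 2 on the scale of its call. With FPKM rescaled by TMM factors, 46 models met the rule, 42 of them among the members reported here. How many of the 16 were among those 42 was not counted. The median of week means of the 16 was 93.8 FPKM at week 2, 14.3 FPKM at week 4 and 41.8 FPKM at week 8. The lowest relative to week 2 was jgi|Obbri1|28180|CE28003_3654, at 354 and 464 FPKM at week 2, 29.2 and 32.4 FPKM at week 4, and 111 and 90.5 FPKM at week 8. The log2 fold change of week 8 over week 2 was -2.35 with an SE of 0.21 (edgeR adjusted p = 2.41e-05). Model jgi|Obbri1|760111|estExt_Genewise1.C_1600042 stood at 978 and 1072 FPKM at week 2, 75.4 and 110 FPKM at week 4, and 249 and 328 FPKM at week 8. For it the log2 fold change was -2.16 with an SE of 0.24 (edgeR adjusted p = 9.08e-05). Both models had divided reads, as had 5 of the 16 lower members, 1 of the 11 higher and 3 of the 36 not called, so their levels are uncertain. Model 806805 was also lower, with a log2 fold change of -1.40 and an SE of 0.28 (edgeR adjusted p = 0.00488).

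Of the 36 members not called, 30 had a 95% interval, not adjusted for multiple tests, that lay within 2-fold of no difference. For all members this number was 33 of 63, where 72.8% of the models meeting the floor had such an interval. The other 6 not called had wider intervals, so a 2-fold difference lies within their error. The closest to equal were jgi|Obbri1|820470|estExt_fgenesh1_pm.C_1290011, with a log2 fold change of 0.00 (95% interval from -0.42 to 0.42), and jgi|Obbri1|793145|fgenesh1_kg.69_#_31_#_Locus14023v1rpkm0.50, with -0.0051 (from -0.62 to 0.61). The first stood at 76.0 and 69.4 FPKM at week 2, 23.7 and 30.9 FPKM at week 4, and 79.7 and 103 FPKM at week 8. With total counts only its log2 fold change was 0.33 (edgeR adjusted p = 0.177). The second was scarce, with 13.8 and 20.1, 1.39 and 1.41, and 15.5 and 26.9 FPKM in the same order. Model 420035 was not called (log2 fold change 0.90, SE 0.34, edgeR adjusted p = 0.0906), but was called without week 4 replicate 1 (adjusted p = 0.00809) or replicate 2 (adjusted p = 0.00736), where the spread of week 4 no longer entered the fit. It was also called with total counts only (log2 fold change 1.23, edgeR adjusted p = 0.0124).

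**Figure D3:**
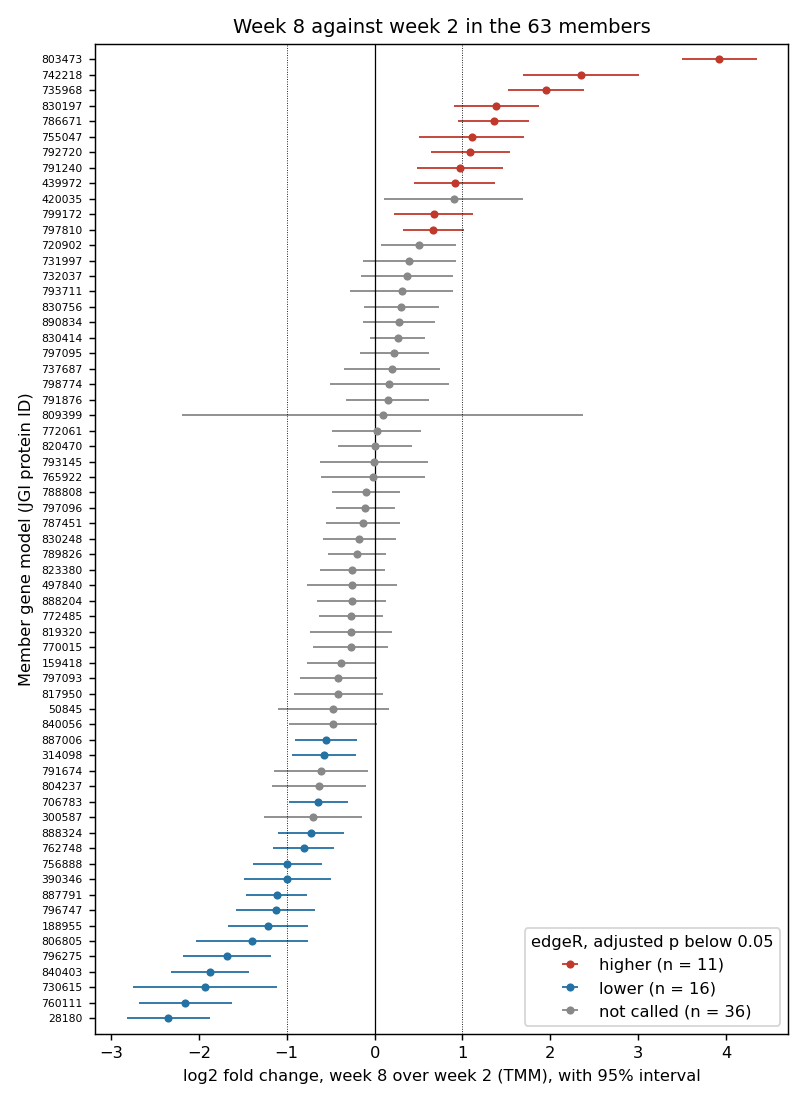
Points give the log2 fold change of week 8 over week 2 (TMM scaling) with its 95% interval for each of the 63 members, coloured by edgeR's call. The 11 higher members reach 3.92, the 16 lower ones reach -2.35, and the widest interval is that of model 809399, whose week 8 libraries were far apart.

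The 2 libraries of week 8 were not alike in these models. Replicate 2 was above replicate 1 in 52 of 63 members (82.5%), with a median difference of 0.37 on the log2 FPKM scale. Over the 7448 models meeting the floor it was above in 55.9%, with a median of 0.041. With TMM-scaled counts the member count was again 52 and the median 0.34. At week 2 replicate 2 was the higher in 28 members and at week 4 in 29, with medians of -0.043 and -0.041. With TMM-scaled counts the week 4 value turned, to 38 members and a median of 0.064, and at week 2 the count was again 28. In the 201 models that peaked at week 4 by the mirrored rule (both week 4 values of v at least 2 times all others, and at 10 FPKM or more), week 8 replicate 2 was above replicate 1 in 14.9%. So in both sets week 8 replicate 1 was for most models the nearer of the 2 to week 4. The part of this difference in the result was not tested, but week 8 was refitted against week 2 without each library. Without week 8 replicate 1, the log2 fold changes of models 803473, 742218, 28180, 760111 and 806805 were 3.94, 2.66, -2.51, -1.98 and -0.99. Without week 8 replicate 2 they were 3.91, 1.95, -2.19, -2.35 and -1.96 in the same order. Each of these fits leaves week 8 with 1 library.

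**Figure D4:**
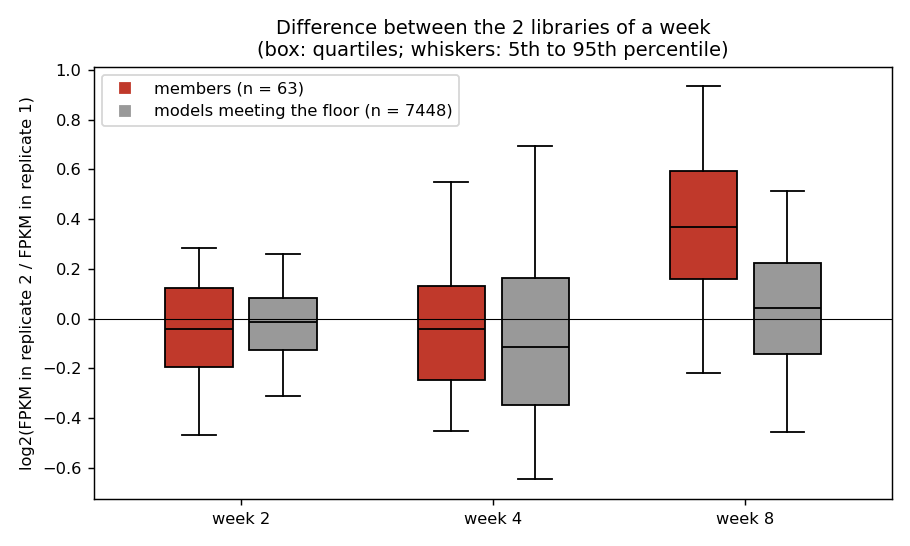
Boxes give the quartiles, and whiskers the 5th and 95th percentiles, of log2 of FPKM in replicate 2 over replicate 1 within each week, for the 63 members (red) and the 7448 models meeting the floor (grey). The members sit near 0 at weeks 2 and 4 and at a median of 0.37 at week 8, against 0.041 for the models meeting the floor.

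A few members lie close together in the assembly, as far as the identifiers tell. In JGI annotations many identifiers carry a scaffold number followed by a running number, here read for 8317 models from 10 sets of gene predictions. In 9 of these sets the scaffold number never fell as the protein ID rose, and gw1 was the exception. Of the 63 members, 47 could be placed, on 42 scaffolds, and 39 scaffolds held a single member. Scaffold 186 held 4 members among its 12 models meeting the floor (33.3%), where 0.835% of all placed models meeting the floor were members. Scaffolds 2 and 382 held 2 each, of 102 and 8 such models. No test was made on these counts.

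Of the 4 members on scaffold 186, 3 follow each other among the listed models of the prediction set fgenesh1_kg, with running numbers 2, 4 and 5, and no other pair of members did so in any set. The first is model 797093, described above. The second, jgi|Obbri1|797095|fgenesh1_kg.186_#_4_#_Locus2003v1rpkm64.90, stood at 197 and 215 FPKM at week 2, 38.7 and 28.3 FPKM at week 4, and 299 and 305 FPKM at week 8. The third, jgi|Obbri1|797096|fgenesh1_kg.186_#_5_#_Locus2986v1rpkm40.45, was scarcer, at 35.7 and 36.2 FPKM, 11.8 and 12.2 FPKM, and 42.1 and 41.7 FPKM. The fourth, jgi|Obbri1|737687|e_gw1.186.22.1, comes from another prediction set, and had 10.8 and 13.0 FPKM at week 2, 2.27 and 3.16 FPKM at week 4, and 18.1 and 16.1 FPKM at week 8. None of the 4 had divided reads, and none was called different between weeks 8 and 2 (log2 fold changes from -0.41 to 0.22, edgeR), but with total counts only model 797095 was called higher at week 8 (0.55, edgeR adjusted p = 0.0372). Of all 12424 listed models, 2786 had both week 4 libraries below all others, as had 31.3% of those meeting the floor. Of the 15 listed models placed on scaffold 186, 6 did, and 4 of them are the members, by the rule. Besides the members these were model 797092 (number 1), at 124 and 116 FPKM against 187 to 329 FPKM at the other weeks, and model 797101 (number 10), at 9.67 and 14.0 FPKM against 16.9 to 38.2 FPKM. Their ratios were 1.51 and 1.19, and model 797101 had divided reads. Among the 11 other models placed there the ratio ran from 0.259 to 1.51.

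**Figure D5:**
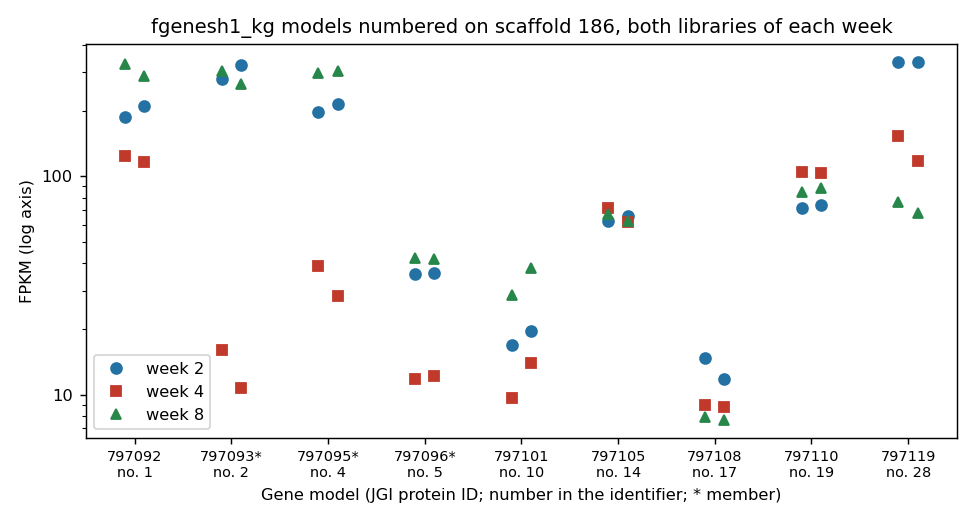
Points give the FPKM (log axis) of both libraries of weeks 2, 4 and 8 for the models of the prediction set fgenesh1_kg placed on scaffold 186, in the order of their running numbers, with members marked by an asterisk. The week 4 points of the 3 members lie at 10.7 to 38.7 FPKM, below all their other points, while models numbered 14 and higher show no such gap.

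On scaffold 382, model 742218 was placed with jgi|Obbri1|786671|estExt_Genewise1Plus.C_3820014, which was chosen here for its place. That model stood at 36.9 and 32.5 FPKM at week 2, 15.0 and 14.1 FPKM at week 4, and 93.2 and 130 FPKM at week 8. Both were among the members higher at week 8, with a log2 fold change of 1.36 and an SE of 0.18 for model 786671 (edgeR adjusted p = 0.00033). A further pair of models there, 786663 and 799482, had identical values and divided reads, and stayed just outside the rule with a ratio of 1.995.

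In length the members were close to the models meeting the floor, while divided reads were more frequent among them and their level was higher. Their median length was 1376 bases (range 189 to 7833), against 1461 bases for models meeting the floor. Models under 1000 bases made up 28.6% of members and 25.8% of models meeting the floor. Divided reads occurred in 9 members (14.3%), against 8.98% of models meeting the floor. The members' mean level over weeks 2 and 8 had a median of 67.4 FPKM, against 42.0 FPKM. They came from 12 prediction sets, with 17 members from fgenesh1_kg, which is 0.82% of that set's models meeting the floor and close to the 0.846% of members overall.

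At the bound of 2, the last model inside was jgi|Obbri1|789826|fgenesh1_kg.18_#_78_#_Locus2886v1rpkm42.30, with a ratio of 2.01 from 77.9 and 73.0 FPKM at week 2, 33.5 and 35.8 FPKM at week 4, and 77.9 and 86.4 FPKM at week 8. The first outside was jgi|Obbri1|812932|fgenesh1_pm.77_#_6, with 18.2 and 17.3, 4.49 and 4.77, and 10.9 and 10.5 FPKM. At the floor, jgi|Obbri1|772061|estExt_Genewise1Plus.C_280041 was inside with a lowest level of 10.5 FPKM, and model 799104 outside with 8.12 FPKM.

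The rule was also applied to 1 replicate at a time and the ratio measured in the other, where a smaller ratio follows from the selection itself. Libraries were grouped over the weeks by replicate number, which the labels do not say links them. Both sets of chosen models held the 63 members, which reach 2 in either replicate by the rule. The shares are therefore given as a description. When models were chosen by the same rule from the 3 replicate 1 libraries alone, 156 met it with a median ratio of 2.35. In the replicate 2 libraries their median ratio was 2.01. There 79 (50.6%) again reached 2, among them the 63 members, for which the rule fixed this. Of all models meeting the floor in those libraries 4.33% did. When 331 models were chosen from the replicate 2 libraries, their median ratio went from 2.34 to 1.59 in the replicate 1 libraries. There 79 (23.9%) reached 2, again with the 63 members among them, and 2.04% of all models meeting the floor did. A ratio above 1 was held by 143 of the 156 and 312 of the 331 (91.7% and 94.3%), against 49.9% and 41.9% of all models meeting the floor in the same libraries. The 63 members are in both counts by the rule, so nothing is read from these shares.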

How the data were processed

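Messenger RNA was sequenced in 6 libraries, 2 for each of weeks 2, 4 and 8. The deposited files give a length, an expected count and an FPKM value for each gene model. The submitters' processing notes list RSEM, Bowtie and BWA; no source used here gives versions, settings or the genome build. The authors' expected counts are not scaled between libraries, and the authors' FPKM values are scaled by length and library size. Models absent from a file were set to 0. Counts were called divided where any differed from a whole number by more than 0.005.

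Expected counts were rounded and tested with edgeR 4.0.16 (R 4.3.3; quasi-likelihood, robust, TMM, filterByExpr with minimum count 10), with a mean per week over all 6 libraries and Benjamini-Hochberg adjustment over 10889 models. Standard errors and 95% intervals were derived from unshrunken coefficients and F statistics. DESeq2 1.42.0 and limma 3.58.1 (pseudocounts 1 and 0.1) were alternatives. The procedure was tested on simulated data. The members, lists and naming rule were chosen with earlier results of these data known. The rule names 2 members for each of the largest higher and lower calls at week 8, the deepest dips, the highest levels and the closest to equal, then the models at the bounds and the longest run on a scaffold. The largest calls were taken among members whose libraries of weeks 2 and 8 did not overlap. Lists by product could not be filled.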

Additional observations from a re-analysis of the deposited data

How the results depend on the processing

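The number of members depended on the bounds. It was 63 as reported, 330 and 16 with fold bounds of 1.5 and 3, 40 with a pseudocount of 5, 38 with FPKM rescaled by library medians (37 of them among the 63), 175 with week means, 156 and 331 with replicate 1 or replicate 2 libraries only, and 68 to 201 without 1 library, which can only loosen the rule (201 and 118 without week 4 replicate 1 or 2, 116 without week 8 replicate 1). With FPKM rescaled by TMM factors 46 models met it, 42 of them among the 63. For week 8 against week 2, the 11 higher and 16 lower members became 17 and 11 with limma on log2(FPKM + 1), 16 and 10 with limma and no filter, 19 and 12 with total counts only, 7 and 9 at a bound of 2-fold, and 6 to 12 and 12 to 18 without 1 library. Over all tested models, 2931 calls became 4533 with total counts only, 1749 at a bound of 2-fold and 1685 to 3857 without 1 library (1685 and 1754 without week 2 replicate 1 or 2, 1944 without week 8 replicate 2). Week 2 and week 8 libraries left out leave a week with 1 library, assumed to vary like the others. With the replicate number as a block, 11 and 16 members and 2717 models were called. Deviations of same-numbered libraries from their week means had correlations of 0.011, -0.070 and -0.15 across models. Such values cannot show whether these libraries shared more than a number. Of 132 alternatives run on 12 named fold changes, 116 kept direction and call, 4 gained a call and 12 changed sign, all in uncalled values near 0. Model 820470 (0.0014) became -0.026 with RLE size factors, -0.027 with DESeq2, -0.015 with the replicate block and -0.18 to 0.16 without 1 library. Model 793145 became 0.044 with upper quartile scaling, 0.32 with total counts only and -0.44 to 0.33 without 1 library, and model 797096 became 0.22 with total counts only. The cause was not tested.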
